A study of Mus musculus with 151 samples.

Results

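Female mice conceived by IVF were followed from late gestation to adulthood through the RNA of their ovaries, with 6 libraries at E18.5 and 5 libraries at 12 weeks, 11 of the 151 samples of the series. The libraries were chosen by their labels (IVF, ovary, E18.5 or 12 weeks), and all 35976 gene names of the 2 count tables entered the comparison. Oocytes of superovulated CF-1 females had been fertilized with B6/SJL sperm, cultured to blastocysts and transferred to pseudopregnant females, and the pups of the adult cohort were delivered by cesarean section and fostered to CF-1 dams. No allele was altered, and no hormone or drug treatment is described for the offspring whose whole ovaries were sequenced. Naturally conceived (Natural) ovaries of the same cross, 4 at each age, came from mating without superovulation, culture or embryo transfer, and served as the comparison at the end. Cesarean delivery and fostering of the adult cohort applied to both groups.

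Several features of the design limit the model. The methods describe 1 ovary of an animal as frozen and the other as fixed, the stage of the estrous cycle is not given for the adult RNA samples, and the collection day of IVF fetuses is stated in more than one way, E18.5 on the labels and a day later in the methods. Mice came from different litters, so the libraries are separate animals, but in the adult cohorts up to 2 animals may come from 1 litter. The ages were deposited in separate tables, and table and age cannot be told apart. In whole-ovary RNA, fewer cells of a type and less RNA per cell cannot be told apart either, and this holds for every result here.

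Total counts were 6995713 to 12005824 per library at E18.5 and 2839022 to 43363799 at 12 weeks, the lowest being 12-week replicate 4, and 21158 to 22228 and 17875 to 24113 gene names had at least 1 count. Levels are given in CPM, the unit of edgeR for counts scaled to library size, after TMM scaling, which adjusts each library for its composition. Means are given ± SD over the 6 fetal and 5 adult libraries. Between 62.9% and 75.1% of the counts from 1 to 19 were even, more than an equal split would give, and every limit or interval that rests on counts covers counting error only and may be too narrow. The markers of ovarian tissue were present at both ages. Foxl2, the transcription factor of the ovarian somatic lineage, stood at 119.9 to 225 CPM (median 179) at E18.5 and at 241, 293, 344, 289 and 191 CPM in 12-week replicates 1 to 5, the order used for all adult values below. Dazl and Ddx4, the germ cell markers, and Pdgfra and Nr2f2, markers of stroma, were detected in all 11 libraries.

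In the mouse, germ cells of the fetal ovary enter meiosis before birth, pass through prophase and arrest, and around birth the nests of oocytes break up into primordial follicles with a layer of pregranulosa cells. After birth some of these follicles grow: the oocyte enlarges and lays down the zona pellucida and maternal stores, granulosa cells multiply and make inhibin, anti-Müllerian hormone and estradiol, and theca cells supply androgens. After puberty, each ovulation leaves a corpus luteum, which takes up and makes cholesterol and turns it into progesterone. The comparison of E18.5 with 12 weeks therefore spans the end of meiotic prophase, the first follicles and the start of cycles.

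Promoter sequences of a few genes are shown because their genes are examples of both directions of change, meiotic and germ cell genes that fell and oocyte genes that rose. They are the 250 bases upstream of the start site from RefSeq (GRCm38.p6, the build of mm10), printed 5′ to 3′ on the strand of the gene. Capitals mark CACGTG, the E-box bound by MYC, MAX and MGA proteins, in the first group: Sycp1 at chr3:102936101-102936350 (minus strand), Taf7l at chrX:134476491-134476740 (minus strand) and Ddx4 at chr13:112652311-112652560 (minus strand), where it began at -94, -49 and -29 from the start site.
Sycp1: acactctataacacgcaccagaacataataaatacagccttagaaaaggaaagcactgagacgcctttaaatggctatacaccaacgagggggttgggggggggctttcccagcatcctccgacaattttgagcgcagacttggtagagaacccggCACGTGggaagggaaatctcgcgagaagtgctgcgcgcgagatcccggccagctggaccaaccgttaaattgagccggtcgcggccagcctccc
Taf7l: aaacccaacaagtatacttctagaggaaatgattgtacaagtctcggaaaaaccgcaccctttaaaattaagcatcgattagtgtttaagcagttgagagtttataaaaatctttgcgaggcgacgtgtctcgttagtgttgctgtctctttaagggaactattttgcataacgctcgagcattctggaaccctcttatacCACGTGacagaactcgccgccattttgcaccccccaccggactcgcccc
Ddx4: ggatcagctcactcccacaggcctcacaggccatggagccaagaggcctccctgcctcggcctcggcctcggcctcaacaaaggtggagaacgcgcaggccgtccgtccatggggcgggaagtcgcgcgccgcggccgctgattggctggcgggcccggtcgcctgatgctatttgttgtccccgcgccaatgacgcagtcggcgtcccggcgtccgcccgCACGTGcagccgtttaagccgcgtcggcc
In the second group capitals mark CAGGTG, a form of the E-box that FIGLA, an oocyte transcription factor, can bind: Oosp1 at chr19:11691052-11691301 (minus strand), where it lies on the opposite strand and reads CACCTG at -249 and -59, and Zp3 at chr5:135979855-135980104 (plus strand), at -55.
Oosp1: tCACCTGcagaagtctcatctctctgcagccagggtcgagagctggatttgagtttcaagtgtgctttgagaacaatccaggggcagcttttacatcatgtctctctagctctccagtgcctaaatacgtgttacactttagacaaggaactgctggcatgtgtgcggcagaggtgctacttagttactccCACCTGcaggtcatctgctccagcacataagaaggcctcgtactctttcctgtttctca
Zp3: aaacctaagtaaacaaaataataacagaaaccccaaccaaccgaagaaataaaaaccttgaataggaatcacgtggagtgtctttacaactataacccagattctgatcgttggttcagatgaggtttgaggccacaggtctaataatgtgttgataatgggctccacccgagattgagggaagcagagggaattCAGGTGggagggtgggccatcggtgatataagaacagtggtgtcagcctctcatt
The Zp3 window also holds a CACGTG, left in lower case.

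Both strands of the 250-base windows were searched for 18 motifs. These were the E-box CACGTG with its longer form TCACGTGA, the further E-boxes CAGCTG with CATCTG and with CAGGTG, the E2F sequence GCGGGAA, the homeobox sequences TAATTA with TAATTG, the orphan receptor sequence AAGGTCA with its longer forms CAAGGTCA and TCAAGGTCA, the octamer ATGCAAAT, the cyclic AMP element TGACGTCA, the forkhead sequence TGTTTAC, the sequence GGAAAC, the CCAAT box, the TATA sequence TATAAA and the GC box GGGCGG. Each longer form contains the shorter one. Windows on chromosome 18 were left out, and 11974 of the genes tested below had a window elsewhere. A gene was counted when any of its windows held the motif. CACGTG occurred in 9.45% of these genes, in 8 of 34 meiotic prophase genes (23.5%), in 8 of 18 germ cell and piRNA genes (44.4%) and in 6 of 20 cholesterol genes (30.0%), a list most of whose genes rose. GCGGGAA, a sequence bound by E2F proteins, occurred in 7.81% of all tested genes with a window and in 29.4% of meiotic prophase genes. CAGGTG occurred in 19.4% of all tested genes with a window and in 13 of 31 oocyte growth genes (41.9%), beside 33.3% of germ cell and 26.5% of meiotic prophase genes. CCAAT, bound by NF-Y, occurred in 39.7% of all tested genes with a window, in 17 of 20 cholesterol genes (85.0%) and in 64.5% of oocyte growth genes. These motifs and lists were picked for their high shares, after the values were seen. A match is only a description of the letters, and binding was not measured.

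Expression was compared between the ages with edgeR's quasi-likelihood test over 16219 genes that passed the filter on low counts, and a gene was called at a Benjamini-Hochberg adjusted p below 0.05. Log2 fold changes are 12 weeks minus E18.5, with positive values higher in the adult. In all, 10569 genes were called (65.2%), 5325 higher (32.8%) and 5244 lower (32.3%) at 12 weeks, and the median log2 fold change over all genes was 0.00. A change beyond 2-fold, tested with glmTreat, was called for 3339 genes (20.6%), 1533 higher (9.45%) and 1806 lower (11.1%). The values of the ages did not overlap for 45.7% of the genes, 22.2% with all adult libraries above and 23.4% with all of them below. The first principal component held 73.1% of the variance and separated the ages, and the second held 6.66% and set 12-week replicate 3 apart from the other adult libraries. The biological coefficient of variation was 20.0% among fetal and 29.9% among adult ovaries.

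With so many genes called, single genes say little, and the changes are described by lists of genes of known role, whose shares called are read against 32.8% higher and 32.3% lower. The plot of gene lists shows how far each departs from these shares.

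**Figure D1:**
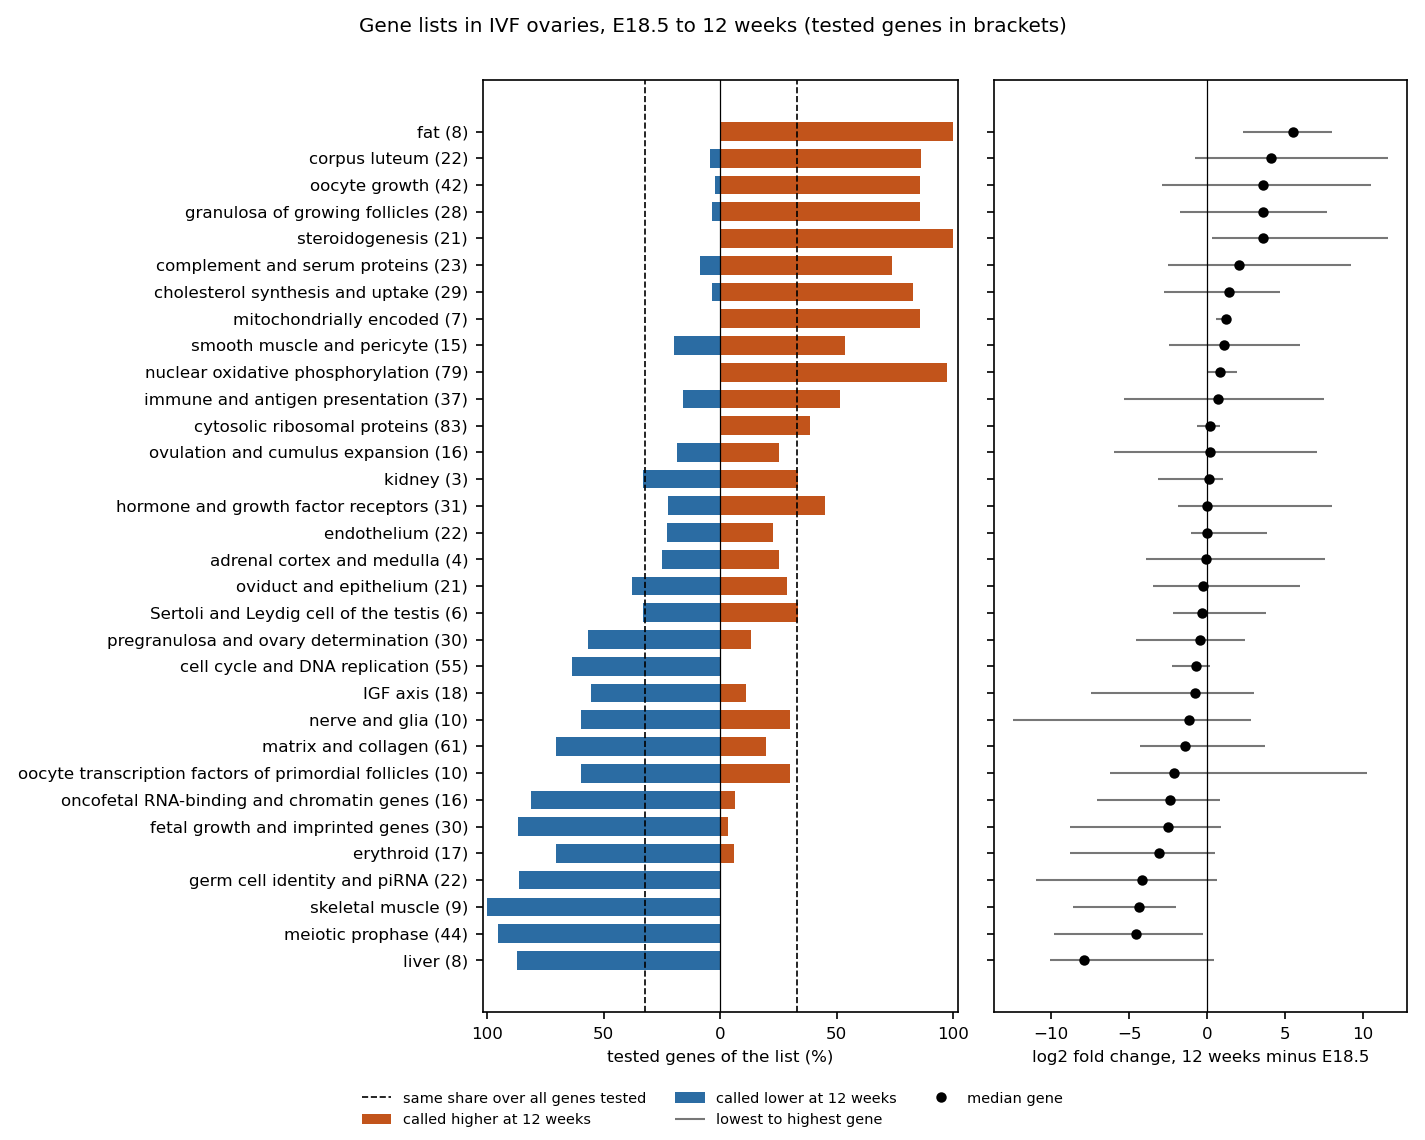
Gene lists in IVF ovaries from E18.5 to 12 weeks, ordered by their median, with the number of tested genes in brackets. Bars on the left give the share of a list's tested genes called higher (right of 0) or lower (left of 0) at 12 weeks, with dashed lines at the shares over all genes (32.8% and 32.3%); on the right, points are the median log2 fold change and lines run from the lowest to the highest gene, and fat, corpus luteum, granulosa and oocyte growth lists sit at the top and liver and meiotic prophase lists at the bottom.

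Genes of meiotic prophase fell almost as a whole. Of 44 tested, 42 were lower and 0 higher at 12 weeks, 34 of them beyond 2-fold, with a median log2 fold change of -4.59 against 0.00 over all genes. Their summed level was 846 to 1333 CPM (median 1305) at E18.5 and 154, 189.8, 207, 165 and 152 CPM at 12 weeks. Sycp1, a transverse filament of the synaptonemal complex that holds paired chromosomes together (chr3:102818499-102936100, GRCm38.p6), stood at 56.8 to 161 CPM (median 101) at E18.5 and at 0.300, 0.898, 0.437, 0.677 and 0.884 CPM at 12 weeks, and its promoter is printed above (log2 fold change -7.34, SE 0.353, adjusted p = 2.78e-09). Every fetal library was far above every adult one. Smc1b, a meiosis-specific cohesin, went from 55.8 to 202 CPM (median 129) to 1.55, 1.11, 0.984, 0 and 1.28 CPM (log2 fold change -6.68, SE 0.384, adjusted p = 1.31e-08). Sycp3, of the lateral elements of the same complex, kept a low level in the adult, 2.25, 1.14, 1.86, 1.69 and 3.00 CPM against 33.9 to 69.9 CPM (median 59.4) at E18.5 (log2 fold change -4.74, SE 0.285, adjusted p = 1.95e-08).

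Hormad1, which marks unpaired chromosome axes, had counts in only 2 adult libraries, 0, 0, 0.219, 0 and 0.0491 CPM, against 10.2 to 21.6 CPM (median 13.4) at E18.5, a ratio of 487 (95% counting interval 166 to 2365). Syce3, of the central element, was at 0 in all 5 adult libraries and at 4.33 to 9.39 CPM (median 5.26) at E18.5, at least 195-fold lower in the adult, taking 3 counts over the group as the limit. The strand exchange protein Dmc1 was lower but still detected, with 0.650, 0.794, 0.109, 1.35 and 0.295 CPM at 12 weeks and 3.21 to 6.00 CPM (median 4.27) at E18.5 (log2 fold change -2.96, SE 0.425, adjusted p = 3.97e-05). Hfm1, a helicase of crossover formation, and Spata22, a partner of DNA-binding proteins at meiotic breaks, are also among the genes that the study names in the ovary. Hfm1 stood at 4.04 to 17.2 CPM (median 14.0) in fetal and 0.250, 0.138, 0.219, 0.677 and 0.0491 CPM in adult libraries (log2 fold change -5.94, SE 0.527, adjusted p = 5.31e-07), and Spata22 at 6.59 to 14.2 CPM (median 11.5) and 0.100, 0, 0.437, 0 and 0.835 CPM (log2 fold change -5.26, SE 0.671, adjusted p = 1.41e-05). For both, the ages did not overlap.

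Psmc3ip, a partner of strand exchange, did not pass the test (-0.35, adjusted p = 0.109). Stra8, which starts meiosis, was not tested: 1 fetal library held 0.330 CPM and all others were at 0.

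Genes of germ cell identity and of the piRNA pathway, the small RNA defence against transposons, followed the meiotic genes. Of 22 tested, 19 were lower and 0 higher (median -4.16). Dazl, an RNA-binding protein of germ cells (chr17:50279393-50293620), stood at 70.1 to 121 CPM (median 94.96) at E18.5 and 3.50, 5.32, 8.31, 7.44 and 4.32 CPM at 12 weeks (log2 fold change -4.15, SE 0.263, adjusted p = 2.84e-08). Ddx4, the VASA helicase (chr13:112598333-112652633), went from 23.5 to 56.8 CPM (median 46.9) to 1.35, 2.83, 3.72, 2.71 and 2.06 CPM (log2 fold change -4.16, SE 0.317, adjusted p = 1.33e-07). Both stayed detectable in every adult library, at levels that no fetal library approached. Taf7l, a germ cell form of a general transcription factor, had counts in only 1 adult library, 0.100 CPM, against 67.8 to 119 CPM (median 92.2) in the fetus (log2 fold change -10.96, SE 0.390, adjusted p = 2.38e-10). Mael, of the piRNA pathway, fell from 52.6 to 114 CPM (median 88.9) to 0.950, 1.24, 3.06, 2.03 and 2.16 CPM (log2 fold change -5.61, SE 0.338, adjusted p = 2e-08), and the piRNA genes Mov10l1, Tdrd9 and Piwil2 had log2 fold changes of -7.46, -6.77 and -5.23 (adjusted p = 1.8e-08, 4.91e-10 and 4.53e-08). Kit, the receptor through which oocytes read KIT ligand and which theca and stromal cells also express, fell less, from 101.98 to 317 CPM (median 241) to 39.7, 42.0, 42.0, 82.9 and 108 CPM (log2 fold change -1.85, SE 0.346, adjusted p = 0.000371), and its highest adult value lay above its lowest fetal one.

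Among 10 tested transcription factors of the early oocyte, 6 fell and 3 rose (median -2.09). Figla, needed to form primordial follicles (chr6:86016494-86020996), stood at 18.48 to 57.2 CPM (median 49.7) at E18.5 and 0.800, 0.82897, 0.874, 2.03 and 0.786 CPM at 12 weeks (log2 fold change -5.58, SE 0.370, adjusted p = 4.05e-08). Sohlh1 fell from 23.0 to 102.34 CPM (median 75.5) to 1.23, 1.17, 0.437, 0.677 and 0.540 CPM (log2 fold change -6.19, SE 0.472, adjusted p = 1.34e-07), Lhx8 from 15.2 to 45.7 CPM (median 36.3) to 1.65, 1.76, 3.28, 2.03 and 2.01 CPM (log2 fold change -3.97, SE 0.354, adjusted p = 5.59e-07). Nobox, which acts on into the growing oocyte, kept more of its level, 7.602, 10.8, 19.5, 12.9 and 8.69 CPM against 19.06 to 95.6 CPM (median 75.0) (log2 fold change -2.51, SE 0.402, adjusted p = 0.000102), and 1 adult library exceeded the lowest fetal one. The members that rose were Obox1, Obox2 and Obox5, oocyte homeobox genes with 0 counts in all 6 fetal libraries, at least 132-fold, 213-fold and 197-fold higher at 12 weeks. They belong to a family of near-identical copies, whose shared reads the counting may have split, and the same holds for the Nlrp, Oosp, Omt2, Oas1 and Fbxw genes below.

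Genes of the growing oocyte moved the other way. Of 42 tested, 36 were higher and 1 lower at 12 weeks, 33 higher beyond 2-fold, with a median of 3.60. The 1 that fell was Ccnb1ip1 (log2 fold change -2.88, SE 0.375, adjusted p = 1.68e-05), an E3 ligase that acts in meiotic crossover formation. Gdf9, the growth factor by which the oocyte directs granulosa cells (chr11:53430774-53437904) and a gene that the study names, stood at 2.03 to 10.2 CPM (median 5.91) at E18.5 and at 44.4, 62.9, 105, 90.7 and 62.3 CPM at 12 weeks (log2 fold change 3.56, SE 0.341, adjusted p = 1.06e-06). Its partner Bmp15 rose from 0 to 1.154 CPM (median 0.708) to 18.6, 33.3, 43.5, 42.6 and 25.5 CPM (log2 fold change 5.77, SE 0.461, adjusted p = 2.07e-07). For both, every adult library was above every fetal one.

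The zona pellucida genes differed in their fetal levels. Zp3, the zona protein whose promoter is printed above, stood at 0 to 8.53 CPM (median 2.50) at E18.5 and 18.6, 33.7, 50.5, 43.3 and 29.2 CPM at 12 weeks (log2 fold change 3.50, SE 0.681, adjusted p = 0.000502). Zp2 was already present in some fetal ovaries, at 20.8, 0.774, 14.3, 5.02, 39.6 and 26.1 CPM in replicates 1 to 6, and at 36.1, 50.4, 91.0, 61.6 and 48.8 CPM in the adult (log2 fold change 1.70, SE 0.577, adjusted p = 0.0191). Fetal replicate 5 exceeded adult replicate 1, so the ages overlap for Zp2 and not for Zp3. Npm2, a nuclear chaperone stored in the egg, rose from 1.06 to 3.27 CPM (median 2.53) to 10.8, 17.3, 24.6, 18.9 and 14.1 CPM (log2 fold change 2.79, SE 0.291, adjusted p = 2.33e-06). Nlrp5, the maternal effect protein MATER, was spread over a wide range in the fetus, 78.9, 5.13, 79.1, 2.95, 28.6 and 59.5 CPM, with 20.9, 31.2, 51.7, 40.6 and 26.0 CPM in the adult, and did not pass the test (log2 fold change -0.34, SE 0.646, adjusted p = 0.663).

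Fetal replicates 2 and 4 had the lowest summed level of growing-oocyte genes, 149 and 209 CPM against 469 to 613 in the other 4, and also the most skeletal muscle RNA (below). They were lowest for the other germ line lists too. Germ cell and piRNA genes summed to 727 and 832 CPM (others 1382 to 1700) and early oocyte transcription factors to 363 and 435 (704 to 801). Meiotic prophase genes summed to 1026 and 846 CPM (1305 to 1333). Without fetal replicates 2 and 4, a choice made after the values were seen, 38 of 44 growing-oocyte genes were higher and 4 lower (median 3.48). Nlrp5 was then called lower at 12 weeks, with a log2 fold change of -0.88 (adjusted p = 0.0335). The libraries left out held its lowest fetal values, so this call follows in part from the choice and is no independent evidence. Of meiotic prophase genes, 41 of 43 were lower without these libraries, and of germ cell and piRNA genes 20 of 22. At 12 weeks the summed level of growing-oocyte genes was 712, 977, 1515, 1423 and 912 CPM. Genes with 0 counts in all fetal libraries included Oosp1, an oocyte secreted protein, with 3.88, 5.53, 10.9, 12.9 and 5.40 CPM at 12 weeks and at least 158-fold higher, and Nlrp4a, with 7.40, 12.1, 19.13, 13.5 and 8.59 CPM and at least 249-fold higher.

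**Figure D2:**
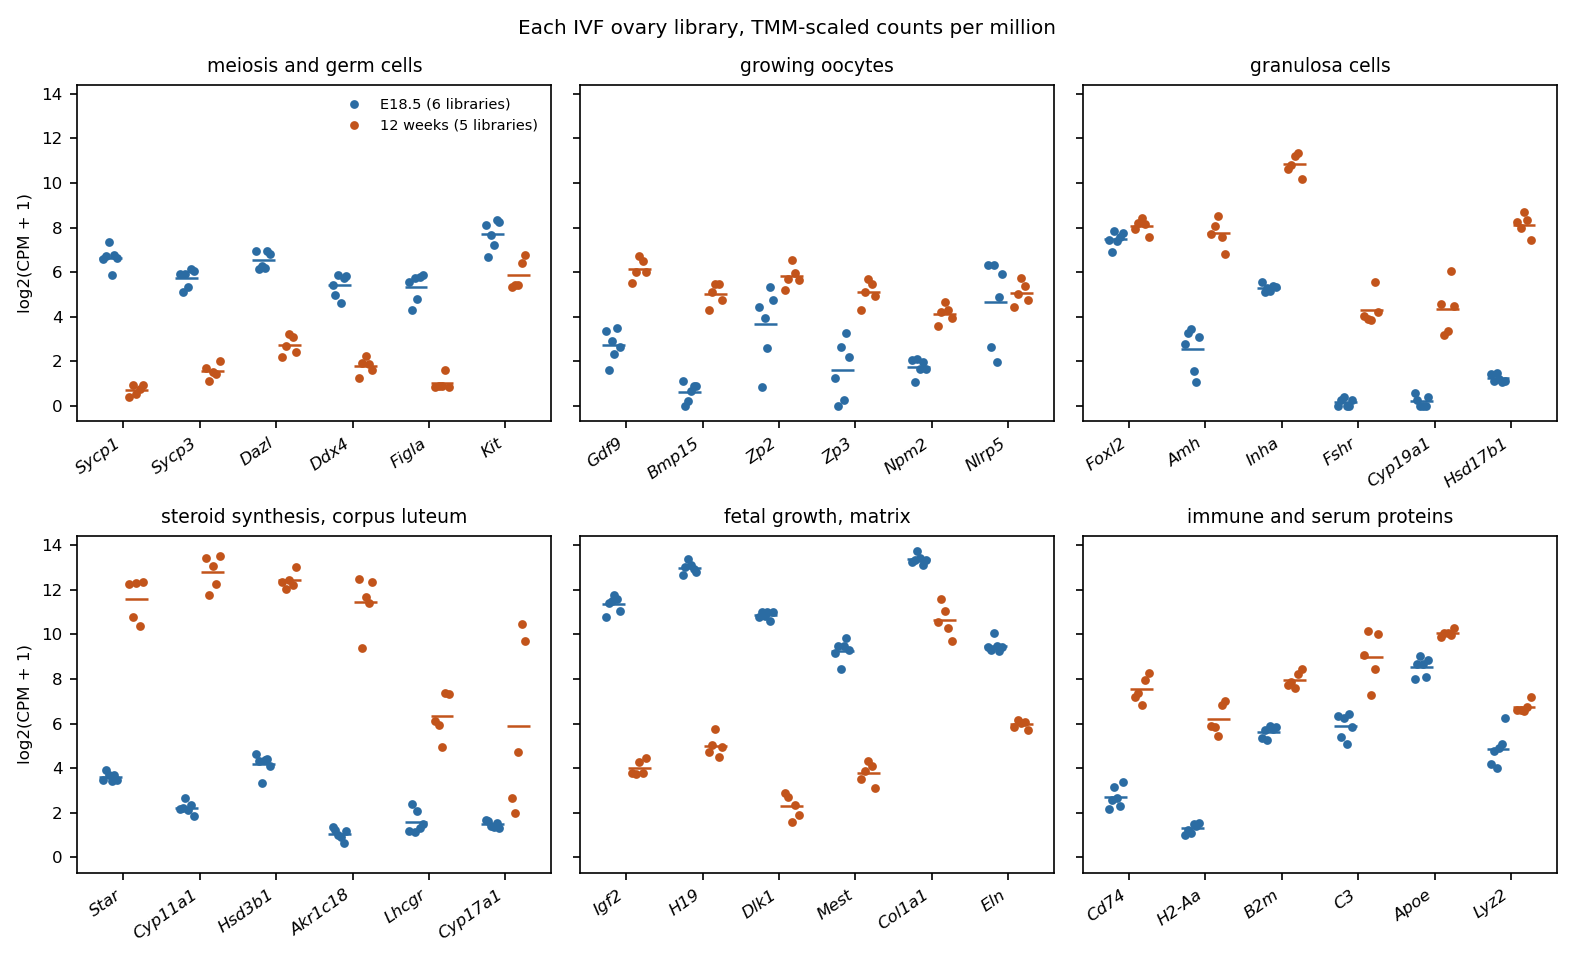
Level of 36 genes in each IVF ovary library as log2(CPM + 1), with points for the 6 E18.5 libraries (blue) and the 5 adult libraries (orange) and a line at each mean. Meiotic genes and Igf2, H19 and Dlk1 sit high at E18.5 and near 0 or low at 12 weeks, oocyte growth, granulosa and steroid genes the reverse, and Nlrp5, Foxl2 and Cyp17a1 show the widest overlap or spread.

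Granulosa cells pass from the quiet pregranulosa layer of a primordial follicle to the dividing, hormone-making layers of a growing one. Of 30 genes of pregranulosa cells and ovary determination, 4 were higher and 17 lower (median -0.46), while of 28 genes of growing-follicle granulosa 24 were higher and 1 lower (median 3.60). Rspo1, the secreted activator of WNT signalling in the fetal ovary, fell from 34.8 to 82.3 CPM (median 61.5) to 10.4, 15.1, 10.4, 11.5 and 24.0 CPM (log2 fold change -2.06, SE 0.261, adjusted p = 1.3e-05). The WNT target Axin2 and the transcription factor Gata2 fell too (-1.71, adjusted p = 7.65e-06 and -3.65, adjusted p = 2.56e-08). Wnt4 itself stood at 123 to 197 CPM (median 140.3) in the fetus and 178, 342, 137, 83.5 and 61.3 CPM in the adult and did not pass the test (log2 fold change 0.14, SE 0.337, adjusted p = 0.738). Gng13, a G protein subunit, went from 8.25 to 22.8 CPM (median 21.1) to 0.975, 0.484, 0.219, 3.04 and 0.638 CPM (log2 fold change -4.56, SE 0.469, adjusted p = 2.07e-06). Lgr5, a receptor for R-spondins that marks the surface epithelium and early pregranulosa cells, was on average level, but the adult libraries ran from 14.7 to 106 CPM (log2 fold change -0.00, SE 0.353, adjusted p = 0.997).

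Foxl2 rose by a small amount (log2 fold change 0.59, SE 0.169, adjusted p = 0.00767), with the ages overlapping. Fst, the activin-binding protein follistatin, rose from 25.3 to 50.9 CPM (median 34.1) to 114, 120.5, 161, 228 and 103 CPM (log2 fold change 2.01, SE 0.214, adjusted p = 2.71e-06), and Nr5a1, the nuclear receptor that drives steroid genes, averaged 57.2 ± 7.54 CPM at E18.5 and 312 ± 86.0 at 12 weeks (log2 fold change 2.44, SE 0.165, adjusted p = 4.67e-08). Both were higher in every adult library than in any fetal one.

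The hormones of growing follicles rose, and every adult library stood above every fetal one. Amh, anti-Müllerian hormone (chr10:80805240-80807679), stood at 1.10 to 9.80 CPM (median 6.77) at E18.5 and 205, 267, 369.8, 192 and 110.2 CPM at 12 weeks (log2 fold change 5.25, SE 0.445, adjusted p = 3.48e-07). Inha, the alpha subunit of inhibin (chr1:75507077-75510366), rose from 33.9 to 45.7 CPM (median 38.3) to 1559, 1772, 2368, 2614 and 1159.9 CPM (log2 fold change 5.62, SE 0.211, adjusted p = 3.62e-10). Inhba, the beta A subunit shared by inhibin and activin, went from 2.97 to 12.8 CPM (median 7.36) to 128, 153, 259, 511 and 188 CPM (log2 fold change 4.99, SE 0.423, adjusted p = 3.5e-07). In none of these did the ages overlap. Hsd17b1, which makes estradiol from estrone, went from 1.10 to 1.80 CPM (median 1.22) to 302, 248, 417, 319.99 and 172 CPM in the adult (log2 fold change 7.71, SE 0.250, adjusted p = 1.63e-10). Nppc, the peptide that holds the oocyte in arrest, rose from 0.163 to 1.38 CPM (median 0.514) to 9.13, 8.64, 16.0, 17.9 and 5.55 CPM (log2 fold change 4.13, SE 0.499, adjusted p = 8.42e-06). The 1 list member that fell was Bex2 (-1.74, adjusted p = 1.49e-06).

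The FSH receptor Fshr stood at 0, 0.194, 0.327, 0, 0 and 0.211 CPM in the fetus and 15.1, 13.8, 13.2, 46.7 and 17.5 CPM in the adult (log2 fold change 7.24, SE 0.599, adjusted p = 2.84e-07). Cyp19a1, aromatase, which makes estrogens in granulosa cells, was at 0.494, 0.194, 0, 0, 0 and 0.317 CPM in the fetus and 23.0, 8.05, 9.29, 65.3 and 21.4 CPM in the adult (log2 fold change 7.05, SE 0.764, adjusted p = 3.2e-06). Adult replicate 4 had the highest value of both genes, above the other 4 adult libraries.

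Steroid synthesis rose as a whole. All 21 tested genes of the list were higher at 12 weeks, 18 beyond 2-fold (median 3.55), and the summed level went from 432 to 484 CPM (median 466) to 31565, 12760.1, 27603, 18687 and 36129 CPM. Star, which carries cholesterol into mitochondria (chr8:25808474-25815982) and is named by the study, stood at 9.64 to 14.1 CPM (median 11.0) at E18.5 and 4865, 1779, 5009, 1321 and 5166 CPM at 12 weeks (log2 fold change 8.33, SE 0.414, adjusted p = 3.7e-09). Cyp11a1, which cuts the cholesterol side chain to pregnenolone (chr9:57998024-58027031), rose from 2.64 to 5.31 CPM (median 3.56) to 10981, 3534, 8542, 4989 and 11765 CPM (log2 fold change 11.04, SE 0.401, adjusted p = 2.9e-10). Hsd3b1, which makes progesterone from pregnenolone, rose from 8.99 to 23.6 CPM (median 19.13) to 5293, 4207, 5633, 4829.9 and 8278 CPM (log2 fold change 8.31, SE 0.284, adjusted p = 2.36e-10). The smallest fold change was that of Stard3 (0.29, adjusted p = 0.0191), a lysosomal cholesterol transporter of many tissues, whose ages overlapped.

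Theca genes varied widely between adult ovaries. Cyp17a1, the androgen-making enzyme of theca cells, stood at 1.48 to 2.22 CPM (median 1.78) in the fetus and at 5.30, 2.94, 25.2, 1436 and 841 CPM in the adult (log2 fold change 7.96, SE 1.53, adjusted p = 0.000451), so that adult replicates 4 and 5 were far above replicates 1 to 3, and replicate 2 was just above the fetal range. Insl3, a theca peptide, followed with 2.10, 0.760, 2.62, 7.44 and 11.1 CPM against 0 to 0.980 CPM (median 0.323) (log2 fold change 3.55, SE 0.748, adjusted p = 0.000936), and its ages overlapped.

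Most genes of the corpus luteum rose. Of 22 tested, 19 were higher and 1, Parm1, lower (-0.51, adjusted p = 0.0489, a call kept in 2 of 11 fits that left out 1 library), with a median of 4.11, and some of them are also in the steroid list. Akr1c18, which breaks down progesterone at the end of luteal life (chr13:4132615-4150646), went from 0.550 to 1.57 CPM (median 1.12) to 5684, 679, 3279, 2744 and 5313 CPM and had the largest rise of all tested genes (log2 fold change 11.61, SE 0.590, adjusted p = 4.47e-09). Sfrp4, a secreted WNT inhibitor of luteal cells, stood at 14.4 to 27.0 CPM (median 19.3) and 3359, 357, 3231, 2755 and 6898 CPM (log2 fold change 7.40, SE 0.586, adjusted p = 1.89e-07). Ptgfr, the receptor for the luteolytic prostaglandin, rose from 2.64 to 5.71 CPM (median 3.92) to 1561, 342, 1231, 576 and 2457 CPM (log2 fold change 8.25, SE 0.524, adjusted p = 2.88e-08). Adult replicate 2 had the lowest value of Akr1c18, Sfrp4, Ptgfr and Prlr, and the summed level of the list ran from 9478 CPM in that library to 33159.6 in replicate 5. Lhcgr, the LH receptor of theca and luteal cells, rose from 1.23 to 4.16 CPM (median 1.66) to 67.8, 59.9, 30.1, 167 and 159 CPM (log2 fold change 5.45, SE 0.491, adjusted p = 6.04e-07), and Prlr, the prolactin receptor that keeps the rodent corpus luteum, from 12.5 to 19.7 CPM (median 14.8) to 885, 385, 805, 491 and 1340.4 CPM (log2 fold change 5.63, SE 0.310, adjusted p = 9.21e-09).

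Most genes of cholesterol synthesis and uptake rose. Of 29 genes of that list, 24 were higher and 1 lower (median 1.38), and the fold changes were smaller than those of the steroid enzymes. Scarb1, the HDL receptor, rose from 43.8 to 59.8 CPM (median 52.2) to 1435, 526, 2022, 786 and 1911 CPM (log2 fold change 4.68, SE 0.3203, adjusted p = 5.37e-08). In the synthesis pathway, Sqle, squalene epoxidase, stood at 36.8 to 62.5 CPM (median 49.8) and 132, 84.8, 147, 99.8 and 92.8 CPM (log2 fold change 1.17, SE 0.168, adjusted p = 3.9e-05). Both genes were higher in every adult library. Other steps of the pathway differed in size, with 3.80 for Fdps and 3.67 for Dhcr7 at the upper end (adjusted p = 5e-07 and 2.95e-07) and Pmvk at 0.03 (adjusted p = 0.885).

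Receptors did not move as a group: of 31, 14 were higher and 7 lower (median 0.02). The estrogen receptors went apart. Esr1, the receptor of stroma, theca and surface epithelium and a gene that the study names, stood at 140.4 to 224 CPM (median 195) in the fetus and 100.3, 149, 44.7, 107 and 125 CPM in the adult (log2 fold change -0.81, SE 0.235, adjusted p = 0.00796), with the ages overlapping. Esr2, the receptor of granulosa cells, rose from 1.79 to 6.03 CPM (median 3.37) to 53.5, 83.4, 101, 117 and 71.5 CPM (log2 fold change 4.50, SE 0.293, adjusted p = 3.62e-08). The growth hormone receptor Ghr stood at 58.1 to 94.7 CPM (median 75.6) and 45.1, 51.2, 46.1, 93.4 and 134 CPM and did not pass the test (log2 fold change -0.08, SE 0.266, adjusted p = 0.814). Oxtr, the oxytocin receptor, had the largest gain of the list, 0.309 ± 0.290 CPM at E18.5 and 83.6 ± 26.5 at 12 weeks (log2 fold change 7.98, SE 0.402, adjusted p = 4.29e-09).

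Genes of ovulation and cumulus expansion, which peak for hours after the LH surge, were near the background, with 4 of 16 higher and 3 lower (median 0.17). Tnfaip6, Ptx3, Pgr and Edn2 did not pass the test (log2 fold changes 1.11, -0.02, -0.50 and -0.27; adjusted p = 0.0533, 0.962, 0.131 and 0.697). The EGF-like factor Areg was not tested, with at most 0.211 CPM in the fetus and 1.30, 1.52, 0.219, 1.35 and 1.77 CPM in the adult. The 3 that fell were Has2, Adamts1 and Vcan, genes of the hyaluronan and proteoglycan matrix (-5.97, -1.82 and -1.66; adjusted p = 2.5e-08, 0.000174 and 0.000117).

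Genes of fetal growth, many of them imprinted and expressed from 1 parental copy, fell together. Of 30 tested, 26 were lower and 1 higher at 12 weeks (median -2.52), and the summed level dropped from 19035 to 26399 CPM (median 23329.8) to 2483, 3096, 3037, 2539 and 2699 CPM. H19, an imprinted noncoding RNA (chr7:142575530-142578146), stood at 6481 to 10615 CPM (median 8115) at E18.5 and 25.6, 32.1, 52.9, 21.3 and 30.2 CPM at 12 weeks (log2 fold change -7.98, SE 0.281, adjusted p = 2.36e-10). Its neighbour Igf2, the fetal growth factor (chr7:142650768-142666816), fell from 1780.01 to 3499 CPM (median 2824) to 13.0, 12.5, 18.6, 12.9 and 20.7 CPM (log2 fold change -7.42, SE 0.257, adjusted p = 2.36e-10). Dlk1, a membrane protein of fetal stroma (chr12:109452485-109463336), fell from 1568 to 2077 CPM (median 1936) to 6.33, 5.60, 1.97, 4.06 and 2.75 CPM (log2 fold change -8.76, SE 0.305, adjusted p = 2.36e-10). No fetal library came near an adult one for these 3 genes. Mest, a hydrolase, fell from 351 to 906 CPM (median 664) to 10.3, 13.7, 19.2, 16.2 and 7.66 CPM (log2 fold change -5.62, SE 0.304, adjusted p = 7.68e-09), and the cell cycle inhibitor Cdkn1c from 650.1 to 1275 CPM (median 774) to 13.4, 20.4, 16.0, 24.4 and 16.3 CPM (log2 fold change -5.59, SE 0.229, adjusted p = 6.75e-10). Meg3, the noncoding RNA of the Dlk1 region, and Plagl1, a zinc finger regulator of this group, kept more, with 60.3, 132, 84.9, 132 and 67.7 and 38.9, 82.1, 76.2, 65.6 and 60.8 CPM in the adult (-4.28, adjusted p = 3.64e-08 for Meg3 and -2.72, adjusted p = 5.92e-08 for Plagl1). The 1 that rose was Zrsr1, a splicing factor (0.91, adjusted p = 0.000482). Total RNA counts do not separate the parental copies, so imprinting itself was not measured.

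Of 16 oncofetal genes, RNA-binding and chromatin proteins of fetal and tumour cells, 13 fell and 1, Cpeb2, rose (0.80, adjusted p = 0.0115), with a median of -2.39. Igf2bp1, an IGF2 mRNA-binding protein, went from 41.7 to 93.5 CPM (median 63.4) to 0.150, 1.31, 0, 0.677 and 0.0982 CPM (log2 fold change -7.08, SE 0.537, adjusted p = 1.28e-07) and Igf2bp3 from 64.6 to 82.3 CPM (median 73.5) to 2.73, 3.94, 4.59, 6.43 and 3.39 CPM (log2 fold change -4.25, SE 0.178, adjusted p = 8.12e-10). Hmga2, a chromatin protein, fell from 29.2 to 57.3 CPM (median 45.4) to 3.68, 7.12, 9.62, 5.41 and 6.63 CPM (log2 fold change -2.79, SE 0.248, adjusted p = 5.47e-07), and Sox11 from 115 to 163 CPM (median 142) to 2.68, 2.83, 2.84, 7.44 and 3.34 CPM (log2 fold change -5.41, SE 0.217, adjusted p = 5.54e-10). Lin28b, which blocks let-7 processing, fell from 4.53 to 10.9 CPM (median 8.57) to 0.200, 0.380, 1.09, 0.677 and 0.196 CPM (log2 fold change -4.34, SE 0.462, adjusted p = 2.77e-06). Lin28a was called only narrowly, with 5.44, 0.581, 4.90, 2.56, 7.56 and 2.11 CPM in the fetus and 1.5005, 2.35, 1.53, 1.35 and 1.08 CPM in the adult (log2 fold change -1.27, SE 0.502, adjusted p = 0.0395), its ages overlapped, and the call was kept in 4 of 11 fits that left out 1 library.

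In the IGF axis, a list that includes Igf2, 10 of 18 genes were lower and 2 higher (median -0.80). Igf1, which granulosa cells make, fell from 356 to 538 CPM (median 445) to 146, 164, 270.1, 129.9 and 109 CPM (log2 fold change -1.45, SE 0.203, adjusted p = 3.26e-05). The binding proteins split: Igfbp5 fell from 3023 to 3970.1 CPM (median 3397) to 409, 811, 483, 533 and 634 CPM (log2 fold change -2.58, SE 0.170, adjusted p = 3.9e-08) and Igfbp3 from 202 to 313 CPM (median 270.4) to 28.4, 32.9, 15.7, 15.6 and 27.1 CPM (log2 fold change -3.42, SE 0.211, adjusted p = 2.33e-08), while Igfbp6 and Igfbp7 were the 2 that rose (1.76, adjusted p = 1.73e-06 and 3.03, adjusted p = 1.42e-09). Igfbp2 fell by less (log2 fold change -1.05, SE 0.174, adjusted p = 0.000135), and Igfbp4, at 729 to 923 CPM (median 796) and 743, 853, 789, 341 and 433 CPM, did not pass the test (log2 fold change -0.35, SE 0.208, adjusted p = 0.151). Slc2a1, the glucose transporter that the study names, fell from 59.7 to 139.7 CPM (median 84.0) to 44.3, 58.1, 35.7, 38.9 and 40.9 CPM (log2 fold change -1.02, SE 0.195, adjusted p = 0.000428), and Cdh13, a cadherin that it also names, rose from 1.27 to 4.61 CPM (median 3.27) to 4.50, 6.04, 3.06, 4.74 and 8.05 CPM (log2 fold change 0.78, SE 0.325, adjusted p = 0.0486), with overlap, a call kept in 2 of 11 fits that left out 1 library (adjusted p up to 0.155). Of the 7 genes that the study names in the ovary, 3 rose (Star, Gdf9 and Cdh13) and 4 fell (Esr1, Hfm1, Spata22 and Slc2a1), with a median of -0.81; they were picked on IVF against Natural results of these ovaries and are no independent evidence.

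Proliferation genes fell by modest amounts. Of 55 genes of the cell cycle and DNA replication, 35 were lower and 0 higher (median -0.72), but only 2 were lower beyond 2-fold, against 11.1% of all genes. Mki67, the Ki-67 antigen, stood at 304 to 439 CPM (median 410.4) in the fetus and 128, 202, 282, 119 and 67.3 CPM in the adult (log2 fold change -1.28, SE 0.283, adjusted p = 0.00132), and Mcm5, of the replicative helicase, at 107 to 149 CPM (median 126) and 58.5, 76.5, 109, 61.9 and 26.5 CPM (log2 fold change -0.94, SE 0.258, adjusted p = 0.00596). Adult replicate 5 had the lowest level of both and replicate 3 the highest, and the summed level of the list in these libraries was 1207 and 3633 CPM. Top2a, Cdk1 and Rrm2 did not pass the test (log2 fold changes -0.61, -0.40 and -0.19; adjusted p = 0.0716, 0.124 and 0.604).

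Of 61 matrix and collagen genes, 43 were lower and 12 higher (median -1.39). Col1a1, of fibrillar collagen I, stood at 8792 to 13602 CPM (median 10397) at E18.5 and 1488, 3098, 2119.6, 1259 and 836 CPM at 12 weeks (log2 fold change -2.60, SE 0.285, adjusted p = 3.55e-06), and Col3a1 at 5823 to 7216 CPM (median 6809.6) and 2292, 3906, 2866, 1307 and 1236 CPM (log2 fold change -1.53, SE 0.261, adjusted p = 0.000168). Elastin (Eln) fell from 607 to 1083 CPM (median 691) to 57.4, 71.4, 65.1, 65.3 and 51.2 CPM (log2 fold change -3.57, SE 0.168, adjusted p = 2.34e-09) and fibrillin 2 (Fbn2), a fetal microfibril protein, from 590.3 to 716 CPM (median 641) to 57.8, 74.2, 62.4, 55.8 and 43.6 CPM (log2 fold change -3.47, SE 0.134, adjusted p = 4.15e-10). Every adult library lay below every fetal one for these 4. Not all matrix went down. Tnc, tenascin C, averaged 87.4 ± 25.2 CPM at E18.5 and 1163 ± 442 at 12 weeks (log2 fold change 3.73, SE 0.270, adjusted p = 8.52e-08), and the basement membrane genes Col4a3, Col4a4 and Lamc3 rose too (1.78, 2.01 and 2.96; adjusted p = 7.74e-06, 2.69e-06 and 1.37e-07). The small proteoglycans differed, with Dcn at 511 to 811 CPM (median 637) and 287, 564, 505, 462 and 624 CPM not passing the test (log2 fold change -0.40, SE 0.184, adjusted p = 0.0709) and Lum just passing it (log2 fold change 0.46, SE 0.190, adjusted p = 0.0447), a call kept in 4 of 11 fits that left out 1 library.

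Endothelial genes changed little as a group, 5 of 22 higher and 5 lower (median -0.03), which is below the background in both directions. Their log2 fold changes ran from -1.03 to 3.84, with 2 genes higher and 0 lower beyond 2-fold. The endothelial genes named here are the lead genes of the list and include none of the 5 called higher. Kdr, the VEGF receptor, fell from 97.7 to 138 CPM (median 118) to 61.8, 60.3, 60.3, 58.2 and 73.5 CPM (log2 fold change -0.90, SE 0.101, adjusted p = 4.51e-06), and Pecam1, which encodes CD31, by less (log2 fold change -0.37, SE 0.112, adjusted p = 0.0104). Cdh5, Vwf and Lyve1 did not pass the test (log2 fold changes -0.23, -0.01 and -0.72; adjusted p = 0.0943, 0.965 and 0.0567). Smooth muscle genes rose, 8 of 15 higher and 3 lower (median 1.11). Acta2, smooth muscle actin of the theca externa and vessel walls, stood at 102.17 to 196 CPM (median 150.2) and 729, 1477, 649, 1002 and 1088 CPM (log2 fold change 2.77, SE 0.222, adjusted p = 2.12e-07), Myh11, smooth muscle myosin, at 35.3 to 75.0 CPM (median 44.9) and 311, 1212, 373, 466 and 663 CPM (log2 fold change 3.61, SE 0.334, adjusted p = 7.63e-07), and Actg2 at 1.16 to 5.47 CPM (median 2.94) and 100.2, 397, 77.3, 189 and 222 CPM (log2 fold change 5.93, SE 0.461, adjusted p = 1.58e-07). Adult replicate 2 had the highest value of all 3. The pericyte genes Notch3 and Cspg4 fell (-2.44, adjusted p = 6.83e-09 and -0.86, adjusted p = 0.000959), and Des, at 84.8, 669.7, 48.7, 266 and 453 CPM in the adult, missed the threshold (log2 fold change 1.11, SE 0.499, adjusted p = 0.0652).

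Immune genes rose in part. Of 37 tested, 19 were higher and 6 lower (median 0.69). Among the genes that rose were those of antigen presentation. Cd74, the class II invariant chain, stood at 3.46 to 9.51 CPM (median 5.17) and 147, 166, 114, 251 and 309 CPM (log2 fold change 5.06, SE 0.316, adjusted p = 2.5e-08), H2-Aa, a class II chain, at 0.989 to 1.90 CPM (median 1.5026) and 59.0, 57.4, 43.1, 115 and 129 CPM (log2 fold change 5.79, SE 0.332, adjusted p = 1.31e-08), and B2m, the light chain of class I, at 37.6 to 58.3 CPM (median 52.3) and 209, 235, 192, 297 and 349.7 CPM (log2 fold change 2.38, SE 0.171, adjusted p = 8.23e-08). No adult library overlapped a fetal one. Macrophage genes moved less: Lyz2 rose from 14.9 to 74.7 CPM (median 27.7) to 95.3, 95.6, 92.7, 105 and 144 CPM (log2 fold change 1.72, SE 0.336, adjusted p = 0.000522) and C1qa from 20.1 to 53.7 CPM (median 31.1) to 62.7, 76.1, 59.5, 78.5 and 64.7 CPM (log2 fold change 1.06, SE 0.194, adjusted p = 0.0003), while Adgre1, which encodes F4/80, stood at 4.04 to 10.8 CPM (median 5.06) and 7.45, 11.1, 5.03, 10.1 and 10.1 CPM and did not pass the test (log2 fold change 0.40, SE 0.309, adjusted p = 0.275). The members that fell included the mast cell proteases Cpa3 and Mcpt4 (-5.31, adjusted p = 2.73e-05 and -2.93, adjusted p = 0.00481).

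Of 23 genes of complement and serum proteins, 17 were higher and 2, A2m and C4a, lower (median 2.06). C3, the central complement protein, stood at 32.8 to 84.6 CPM (median 65.6) and 536, 1127, 153, 350.4 and 1031 CPM (log2 fold change 3.38, SE 0.446, adjusted p = 1.91e-05), and adult replicate 3 had the lowest adult level. C4b, a further complement protein, rose from 1.87 to 5.64 CPM (median 3.61) to 26.9, 72.2, 37.7, 63.3 and 70.8 CPM (log2 fold change 3.92, SE 0.306, adjusted p = 1.7e-07). Apoe, a lipid carrier that steroid cells make, rose from 255 to 520.4 CPM (median 403) to 941, 1079, 1056, 1007 and 1251 CPM (log2 fold change 1.47, SE 0.173, adjusted p = 6.64e-06), and Mgp, matrix Gla protein, from 65.6 to 95.6 CPM (median 84.6) to 391, 338, 481, 243 and 274 CPM (log2 fold change 2.06, SE 0.162, adjusted p = 1.79e-07). None of these genes overlapped between the ages.

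Genes of mitochondrial respiration rose by small amounts. Of 79 nuclear genes of oxidative phosphorylation, 77 were higher and 0 lower (median 0.81), with 7 beyond 2-fold. Atp5b, the beta subunit of ATP synthase, stood at 587 to 659 CPM (median 616) and 1259, 1097, 1238, 1244 and 1261 CPM (log2 fold change 0.98, SE 0.0782, adjusted p = 2.07e-07) and Cox8a, of cytochrome c oxidase, at 57.3 to 80.5 CPM (median 68.5) and 156, 118, 139, 141 and 157 CPM (log2 fold change 1.04, SE 0.104, adjusted p = 1.68e-06). Both rose without overlap. Cox7a1, the form of heart and skeletal muscle, rose from a low level, 1.154 to 2.81 CPM (median 1.79) to 6.10, 3.56, 5.03, 2.37 and 7.81 CPM, with overlap (log2 fold change 1.44, SE 0.335, adjusted p = 0.00196).

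Of 7 tested genes of the mitochondrial genome 6 were higher and 0 lower (median 1.18), the other being ND5 (0.59, adjusted p = 0.0744). Their share of all counts was 1.16% ± 0.358 at E18.5 (SD, n = 6) and 2.32% ± 0.439 at 12 weeks (SD, n = 5), higher at 12 weeks in every library (exact permutation test on the group means, two-sided, p = 0.00216, the smallest p that 462 assignments allow, and the same after Benjamini-Hochberg adjustment over 2 shares). Fetal replicate 3 stood apart with 0.470%. COX1, of cytochrome c oxidase, was at 2005 to 5022 CPM (median 4233) and 9470.4, 7089.9, 9643, 6517 and 10942 CPM (log2 fold change 1.12, SE 0.210, adjusted p = 0.000383). ND3, ND4L, COX2, COX3, ATP6 and ATP8 were below 1 CPM in all libraries of both ages, so the share is that of the 7 genes counted.

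Of 83 cytosolic ribosomal protein genes 32 were higher, a share near that of all genes, and 0 lower, against 32.3% of all genes (median 0.19), with 0 beyond 2-fold. With library totals as the only scaling, 10 were higher and 4 lower (median 0.10). Rplp0 and Rps6 did not pass the test (0.20, adjusted p = 0.0514 and 0.11, adjusted p = 0.261). The family has many processed copies in the genome, which may share reads.

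Genes typical of blood and of neighbouring tissues were also measured, at levels that differed by age and by library, and their part in the results for ovarian genes was not tested except where a value without a library is given. Red cell RNA was higher in the fetus, where 12 of 17 erythroid genes were above their adult level and 1 below it (median -3.09). Hemoglobin genes took 0.278% ± 0.109 of the counts at E18.5 (SD, n = 6) and 0.0156% ± 0.0169 at 12 weeks (SD, n = 5; two-sided exact permutation test, p = 0.00216). Hba-a1 stood at 323 to 806 CPM (median 486) and 8.08, 26.2, 18.1, 16.2 and 108 CPM (log2 fold change -3.81, SE 0.582, adjusted p = 6.84e-05), with near-identical copies of the gene nearby. Alas2, of heme synthesis in red cells, fell from 28.6 to 89.6 CPM (median 49.5) to 1.88, 4.59, 10.2, 4.06 and 11.0 CPM (log2 fold change -3.07, SE 0.445, adjusted p = 4.36e-05). Adult replicate 5 held the most blood RNA of the adult libraries.

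Skeletal muscle genes were all lower in the adult (9 of 9, median -4.37), but their fetal level varied with the library. The summed level was 62.3, 529, 106, 443, 152 and 31.6 CPM in fetal replicates 1 to 6 and 7.63, 12.8, 7.43, 6.09 and 10.8 CPM in the adult. Replicates 2 and 4 stood far above the others. Without these libraries, again left out after the values were seen, 6 of 7 tested muscle genes were lower (median -2.20). Myh3, embryonic myosin, stood at 1.98, 56.5, 1.96, 43.5, 7.70 and 0.846 CPM in the fetus and at most 0.0982 CPM in the adult (log2 fold change -8.62, SE 1.56, adjusted p = 0.000279), and Ckm, muscle creatine kinase, fell over all libraries (log2 fold change -3.80, SE 1.06, adjusted p = 0.00628) but did not pass without replicates 2 and 4 (-1.99, adjusted p = 0.0804).

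Of 8 liver genes 7 were lower (median -7.91, or -7.14 with the gene at 0 set to its bound). Afp, alpha-fetoprotein, stood at 75.2, 114, 28.5, 7.48, 185 and 28.8 CPM in the fetus and 0.05002, 0.138, 0, 0 and 0 CPM in the adult (log2 fold change -10.09, SE 1.13, adjusted p = 4.19e-06), and albumin (Alb) at 297, 239, 76.0, 15.3, 495 and 83.2 and 0, 0, 0.437, 2.03 and 0.687 CPM (log2 fold change -9.54, SE 1.17, adjusted p = 9.62e-06). The fetal libraries differed by more than an order of magnitude for both. Apob and Ttr, at 0 in every adult library, were at least 263-fold and 257-fold lower, and Fga had a ratio of 1318 (95% counting interval 364 to 10891).

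Nerve and glia genes were mixed, 3 of 10 higher and 6 lower (median -1.16). Nefm, a neurofilament subunit, had the largest fall of the 16219 tested genes. It stood at 116 to 221 CPM (median 144) in the fetus, with 0.05002 CPM in 1 adult library and 0 in the other 4, a ratio of 8164 (95% counting interval 2259 to 67424). Its partner Nefl went from 60.8 to 117 CPM (median 68.4) to 0.0691 CPM in 1 adult library and 0 in the others, a ratio of 3924 (1086 to 32408). Sox10, a transcription factor of glia, averaged 1.44 ± 0.831 CPM at E18.5 and 0.229 ± 0.263 at 12 weeks.

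Fat genes were higher at 12 weeks for all 8 tested (median 5.49), with a summed level of 9.48 to 63.8 CPM (median 11.5) in the fetus and 558, 219, 481, 560.1 and 1769.8 CPM in the adult, highest in replicate 5. Outside replicate 5, Plin4 was the largest member of the adult sum, with 20209, 4237, 3604, 927 and 8671 counts over the adult libraries. Cidec had 4, 82, 32, 114 and 3587 counts in the same libraries, and Retn 19, 53, 12, 48 and 2753. Adipoq, adiponectin, stood at 0 to 6.60 CPM (median 0) and 0.350, 3.94, 5.25, 35.2 and 252 CPM (log2 fold change 6.06, SE 1.61, adjusted p = 0.00464), and Plin1, of lipid droplets, at 0.165 to 5.78 CPM (median 0.622) and 25.4, 30.8, 26.7, 49.7 and 142 CPM (log2 fold change 5.50, SE 0.746, adjusted p = 2.38e-05). Without adult replicate 5 the list kept 4 calls, and without fetal replicate 5 it kept 5. Car3, a carbonic anhydrase of fat and muscle, rested on replicate 5, with 4.50, 35.5, 28.1, 202 and 1600.4 CPM in the adult (log2 fold change 4.48, SE 1.49, adjusted p = 0.0174) and a log2 fold change of 1.92 (adjusted p = 0.186) without it.

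Oviduct and epithelial genes split, 6 of 21 higher and 8 lower (median -0.26), and adult replicate 3 had the lowest summed level of the adult libraries. Ovgp1, the oviduct glycoprotein, stood at 12.9 to 32.2 CPM (median 17.7) in the fetus and 2538, 2687, 2.51, 609 and 302 CPM in the adult (log2 fold change 5.92, SE 1.05, adjusted p = 0.000235). Foxj1, the regulator of motile cilia, stood at 6.199 to 15.9 CPM (median 9.16) and 103, 164, 0, 80.8 and 175 CPM (log2 fold change 3.40, SE 0.755, adjusted p = 0.00139). In replicate 3 both were below every fetal library, and without it 12 genes of the list were higher. Few kidney and adrenal genes could be tested, 3 of 12 kidney genes (1 higher, 1 lower) and 4 of 10 adrenal genes (1 higher, 1 lower). The higher adrenal one was Mrap, a melanocortin receptor partner that also occurs in fat (log2 fold change 7.54, SE 0.458, adjusted p = 2.16e-08). The summed adrenal level was 5.31 to 26.3 CPM in the fetus and 191, 92.7, 136, 49.7 and 169 CPM in the adult. Mrap alone made up most of this adult sum, with 6859, 2187, 1159, 131 and 3303 counts. Cyp11b1, of the adrenal cortex, had 675, 382, 26, 0 and 6 counts in the adult and at most 2 in any fetal library. Th, listed for the medulla, had 163, 14, 202, 27, 139 and 178 counts in fetal replicates 1 to 6 and 22, 17, 12, 2 and 20 in the adult. Of 6 tested genes of the Sertoli and Leydig cells of the testis, 2 were higher and 2 lower.

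**Figure D3:**
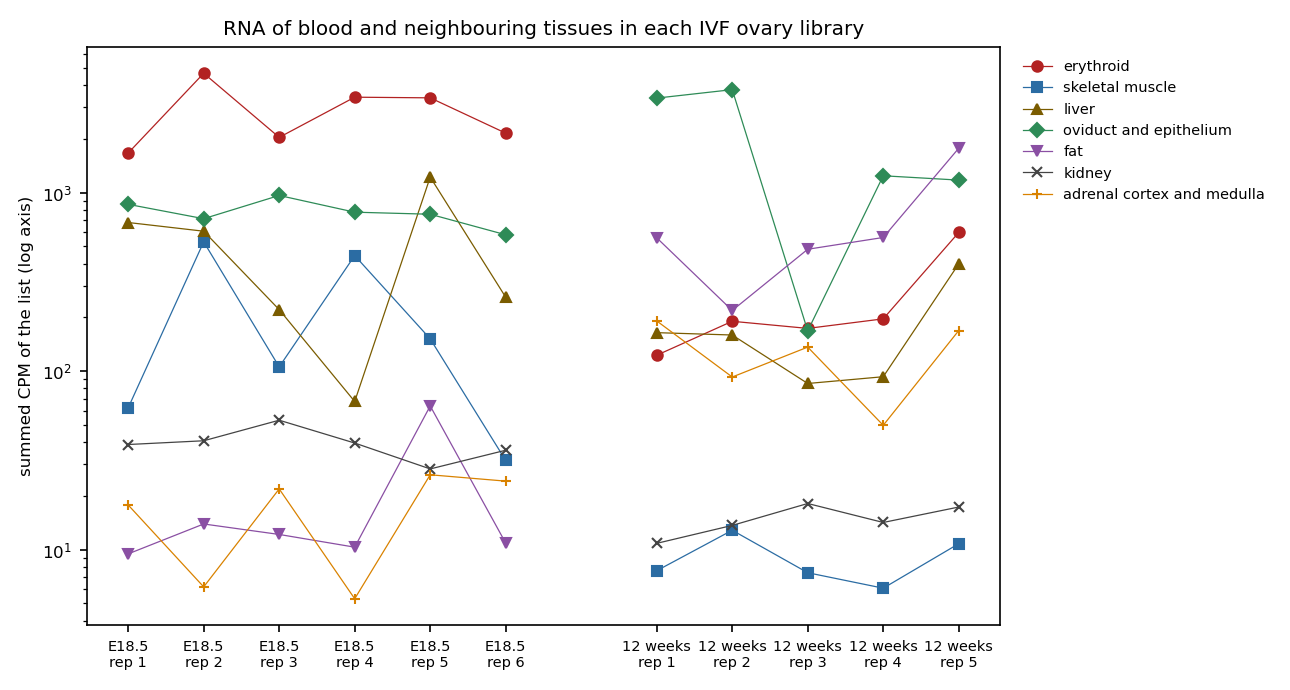
Summed CPM of genes of blood and neighbouring tissues in each IVF ovary library, on a log axis, with 1 symbol and color per list; the thin lines only join the symbols of a list, since replicates have no order. Skeletal muscle is highest in fetal replicates 2 and 4 (529 and 443 CPM), oviduct lowest in adult replicate 3 (168 CPM) and fat highest in adult replicate 5 (1770 CPM). Most of the adult liver sum is the gene Trf, and most of the adult adrenal sum is Mrap.

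Genes were also picked by the size of their change alone. The 10 largest rises without overlap were those of Akr1c18 and Cyp11a1, described above, of Wisp2, a secreted protein of the CCN family (359, 61.8, 238, 92.0 and 614 CPM in the adult and at most 0.581 in the fetus, log2 fold change 9.69, SE 0.746, adjusted p = 1.47e-07), and of 7 oocyte genes with 0 fetal counts, Nlrp4a, C87977, Obox1, Obox2, Obox5, Oosp1 and Fbxw19. The lower bounds for C87977 and Fbxw19 were 227-fold and 139-fold. The 10 largest falls included, beside Nefm, Nefl, Taf7l and the liver genes Afp, Fga, Apob and Ttr, 3 genes at 0 in every adult library: Pet2 (at least 1247-fold lower), the fetal tight junction gene Cldn6 (at least 555-fold) and Klf14 (at least 399.8-fold), a zinc finger factor.

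By difference in mean CPM, which is not per transcript length and so ranks long or abundant transcripts first, the gains were led by Cyp11a1, Hsd3b1, COX1, Star, Malat1, Akr1c18, Sfrp4, CYTB, Inha and Gpx3. Malat1, a nuclear noncoding RNA, stood at 1266 to 2176 CPM (median 1706) and 6648, 5654, 4415, 3446 and 6286 CPM (log2 fold change 1.65, SE 0.190, adjusted p = 5.51e-06), and Gpx3, a secreted glutathione peroxidase, at 30.3 to 48.7 CPM (median 36.5) and 1792, 707, 2673, 1042 and 2929.8 CPM (log2 fold change 5.57, SE 0.353, adjusted p = 2.84e-08). The losses were led by Col1a1, H19, Col3a1, Col1a2, Igfbp5, Igf2, Dlk1, Xist, Meg3 and the hemoglobin gene Hbb-bs. Xist, the noncoding RNA of the inactive X chromosome, averaged 2336 ± 291 CPM at E18.5 and 471 ± 91.2 at 12 weeks (log2 fold change -2.31, SE 0.141, adjusted p = 2.25e-08). All 20 of these genes separated the ages without overlap, against 45.7% of all genes tested. They were picked for large changes in the same libraries, so this follows in part from the choice.

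Some genes were set apart by their spread among replicates. In the adult these were Ovgp1, Cyp17a1, Foxj1, Ltf and Dnah5, of which Ltf encodes the secretory protein lactoferrin and Dnah5 a dynein of motile cilia. Ltf stood at 108, 197, 0, 61.9 and 71.8 CPM and Dnah5 at 57.3, 104, 0, 23.0 and 122 CPM at 12 weeks, both at 0 in replicate 3. In the fetus they were Hba-a2, Car3, Ckm, Myh3 and Olfr1033, an olfactory receptor gene with 0.247, 0, 35.2, 26.7, 17.9 and 0.211 CPM, high in 3 libraries and near 0 in the other 3, which did not pass the test between the ages (log2 fold change 0.35, SE 1.07, adjusted p = 0.790). Hba-a2, at 0.330, 1.16, 101, 112, 112 and 0.529 CPM, shows the same kind of split, and it shares its sequence with Hba-a1. At 10 CPM or more, 56 of 10985 genes had a standard deviation above 1 on the log2 scale in the fetus and 277 of 11002 in the adult.

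The age change of IVF ovaries was then set beside that of Natural ovaries, with which it shares no libraries. In Natural ovaries 17178 genes were tested, and 8672 were called (50.5%), 4197 higher (24.4%) and 4475 lower (26.1%). Of 16002 genes tested in both, 10390 were called in IVF and 8135 in Natural, and 6992 in both, 6974 of these in the same direction, which is 67.3% of the IVF calls and 85.9% of the Natural calls. In 18 the directions were opposite. The difference between the age changes was tested as an interaction over all 19 libraries and 17945 genes, and 1 gene was called (0.00557%). That gene was more positive in IVF, and 0 were more negative (0%). At an unadjusted p below 0.05 there were 2866 genes, and DESeq2 called 492.

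The 1 gene was Cd276, which encodes the immune checkpoint protein B7-H3 (chr9:58524300-58555033). It stood at 61.2 to 76.5 CPM (median 68.7) in fetal and 30.2, 32.1, 34.2, 27.7 and 21.2 CPM in adult IVF ovaries, and at 83.1, 69.7, 88.3 and 74.1 and 16.6, 10.9, 13.8 and 13.7 CPM in Natural ones. It fell in both, by less in IVF, with a log2 fold change of -1.24 against -2.52 in Natural (difference 1.22, SE 0.184, adjusted p = 0.0405). All adult IVF libraries lay above all adult Natural ones. The call was kept in 9 of 19 fits that left out 1 library (difference 1.12 to 1.32, adjusted p from 0.00249 to 0.142), and it was lost with library totals as the only scaling and with the replicate number as a block.

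**Figure D4:**
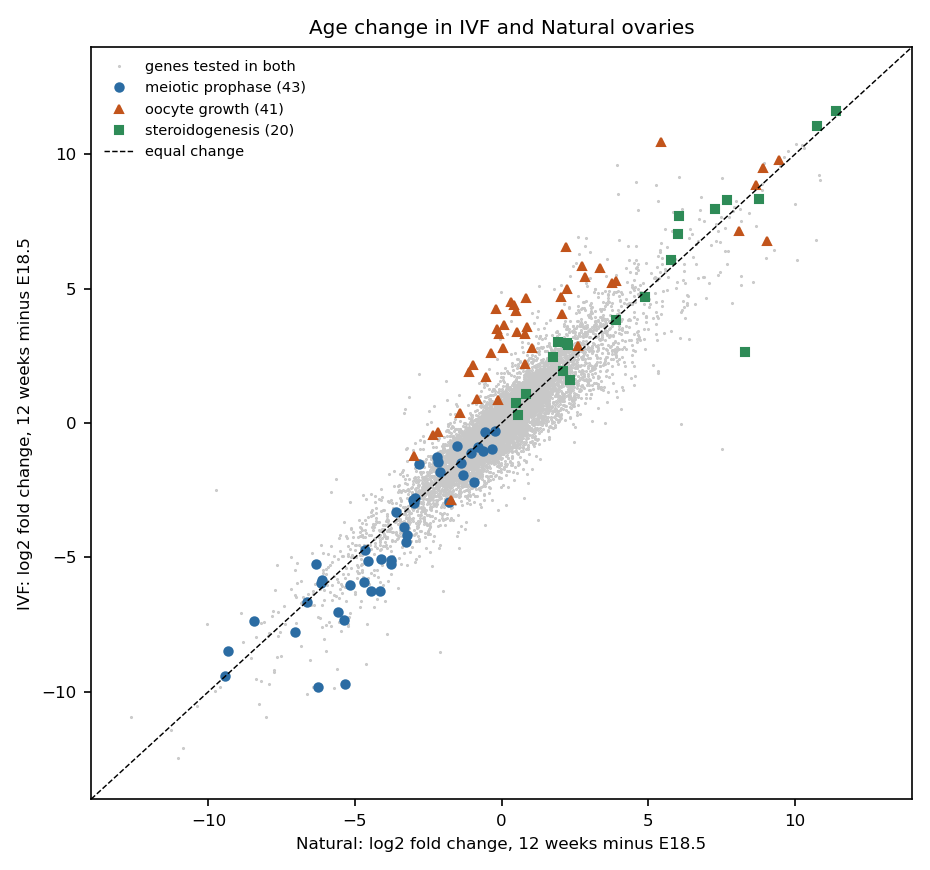
Log2 fold change from E18.5 to 12 weeks in Natural ovaries (x axis) and IVF ovaries (y axis) for 16002 genes tested in both (grey), with meiotic prophase genes (blue circles), oocyte growth genes (orange triangles) and steroid synthesis genes (green squares). The dashed line marks equal change; meiotic genes lie near it at lower left and steroid genes at upper right, while most oocyte growth genes lie above it.

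The lists were compared by the difference between the 2 age changes. For meiotic prophase 15 of 44 genes had the more positive change in IVF, with a median difference of -0.26, for steroid synthesis 14 of 21 (0.24), and for the corpus luteum 10 of 22 (-0.05), against 50.6% and 0.01 over all genes tested. Among oocyte growth genes it was 39 of 42, with a median difference of 2.40 and 31 of 42 at an unadjusted p below 0.05, against 16.7% of all genes. None of them was called after adjustment in edgeR, whereas DESeq2 called 20. The summed level of the list at E18.5 was 939, 1068, 507 and 1833 CPM in Natural ovaries and 149 to 613 in IVF ovaries, so that Natural replicate 3 lay within the IVF range and the others above it. Gdf9 stood at 18.2, 27.1, 7.51 and 54.5 CPM in fetal and 32.9, 67.8, 36.1 and 61.2 CPM in adult Natural ovaries, a log2 fold change of 0.88 against 3.56 in IVF (difference 2.64, SE 0.627, adjusted p = 0.102). The stated collection day of IVF fetuses, and the dissected tissue around them, differ between the groups or libraries, and their part in this difference was not tested.

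Other lists also leaned to one side. The change was more positive in IVF for 55 of 55 cell cycle genes (median difference 0.61, 36.4% at an unadjusted p below 0.05), 78 of 79 nuclear oxidative phosphorylation genes (0.44, 60.8%) and 81 of 83 ribosomal protein genes (0.51, 85.5%), the last with a larger unadjusted share than the oocyte growth genes (73.8%). Genes of growing-follicle granulosa (22 of 28, 0.61) and endothelium (19 of 22, 0.48) leaned the same way. Lists of blood and neighbouring tissues leaned to the other side, with the more positive change in IVF for 2 of 21 oviduct genes (-0.90), 2 of 17 erythroid (-1.32), 1 of 9 skeletal muscle (-1.05), 1 of 8 fat (-1.24) and 0 of 8 liver genes (-0.73). None of these genes was called. Zp3 is an example of a gene with opposite estimates, -0.16 in Natural and 3.50 in IVF (difference 3.61, SE 0.996, adjusted p = 0.120). Of the genes that the study names, Star differed by -0.51 (adjusted p = 0.603), Esr1 by -0.88 (0.281), Slc2a1 by -0.03 (0.981) and Cdh13 by 0.20 (0.857), and none passed the test.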

How the data were processed

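Ovaries of IVF mice at E18.5 (6 libraries) and 12 weeks (5) were analysed, with Natural ovaries (4 and 4) for comparison. Values are whole-number read counts per gene name, which the authors deposited without normalization in 1 table per age. Per the labels, mRNA libraries were made with a stranded KAPA kit, and reads were processed with Trimmomatic (0.32), STAR (2.3.0e) and featureCounts (1.5.0) on mm10; how strand and read pairs were counted is not given in the sources used here. The tables were joined by gene name (35976 names, 27 of them plain numbers, left as they stood).

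Genes were filtered with filterByExpr, scaled with TMM and tested with edgeR (4.0.16, R 4.3.3) quasi-likelihood fits, with adjusted p values by Benjamini-Hochberg and a threshold of 0.05; glmTreat tested against a log2 fold change of 1. The age change was fitted on the IVF libraries alone, and its difference from that of Natural ovaries on all 19. DESeq2 (1.42.0) and limma (3.58.1) were alternatives. A gene at 0 in a group is given a bound from 3 counts over the group. Library totals of 2839022 to 43363799 limit genes with few reads.

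The 33 gene lists, the members and the rules for named genes were chosen with earlier results of these data known. Named genes are the lead genes of each list, the 10 largest rises and falls without overlap, with at least 10 counts in every library of the higher age and without predicted or Riken names, the 10 largest gains and losses in mean CPM, the genes called for a difference from Natural, and the 5 with the largest spread at each age. On simulated counts the age test recovered 59% of genes changed by a log2 fold change of 1 and 87% at 2, with 3.95% false calls, and the interaction 39% and 65%, with 5.45%. Only 100 genes of each size were changed there and all others were left level, whereas 65.2% were called with age here. These rates describe that setting and may not hold for the real data. Alternatives covered the tool, scaling, filter, depth, fold threshold, spread estimate, replicate block and each library left out. Other tissues and ages of the series were not analysed here. Values of some single list members are not reported here.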

Additional observations from a re-analysis of the deposited data

Results flagged for a closer look

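A library was listed here when its distance from the nearest other library of its group, as a share of the group's range, was above Dixon's 95% critical value. For normally distributed values, chance alone lists about 1 in 20 groups. Here 30 of 293 groups of values (10.2%) were listed, 12 of them through adult replicate 5 and 6 through fetal replicate 3. The groups overlap, since single genes also enter the sums and shares, and normality was not checked. The 10.2% is therefore not to be read against 1 in 20.

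Fetal replicate 3 was low in RNA of the mitochondrial genome, with 2005 CPM of COX1 against 3934 to 5022 in the other fetal libraries, 711 of CYTB (2019 to 2247 in the others), 4607 summed CPM and a share of 0.470% (1.13 to 1.44%). The same library was high in elastin (Eln, 1083 CPM, others 607 to 712) and in the summed oncofetal genes (1534 CPM, others 1140.3 to 1267).

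Fetal replicate 5 was high in the summed fat genes (63.8 CPM, others 9.48 to 13.9) and in Car3 (85.8 CPM, others 0.211 to 9.10), and low in Gng13 (8.25 CPM, others 17.5 to 22.8) and Klf14 (5.50 CPM, others 11.9 to 14.3). Fetal replicate 6 was high in the macrophage genes C1qa (53.7 CPM, others 20.1 to 31.9) and Lyz2 (74.7 CPM, others 14.9 to 32.5). Fetal replicate 2 was high in Hba-a1 (806 CPM, others 323 to 499.7) and fetal replicate 4 in Wnt4 (197 CPM, others 123 to 144).

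Adult replicate 5 was high in blood RNA, with 108 CPM of Hba-a1 (others 8.08 to 26.2), 320.4 of Hbb-bs (25.1 to 77.5), 65.8 of Hbb-bt (3.40 to 13.5), 598 summed CPM of erythroid genes (123 to 196) and a hemoglobin share of 0.0452% (0.00338 to 0.0113%). It was also high in fat genes, with 1600.4 CPM of Car3 (4.50 to 202), 157 of Lipe, a lipase of fat and steroid cells (36.5 to 59.7), and 1769.8 summed CPM (219 to 560.1). The vessel gene Kdr (73.5 CPM, others 58.2 to 61.8) and the macrophage gene Lyz2 (144, others 92.7 to 105) were highest there too, as were the summed receptor genes (4419 CPM, others 3294 to 3437) and the summed liver genes (399 CPM, others 85.2 to 164). Trf made up nearly all of this liver sum, with 8039 counts in adult replicate 5 against 14 of Alb and 58 of Ahsg.

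Adult replicate 4, the library with the fewest counts, was high in the granulosa genes Fshr (46.7 CPM, others 13.2 to 17.5) and Cyp19a1 (65.3 CPM, others 8.05 to 23.0). Adult replicate 2 was low in Atp5b (1097 CPM, others 1238 to 1261) and adult replicate 3 high in the oocyte gene C87977 (21.6 CPM, others 6.48 to 10.1).

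Between the conception groups, Cd276 was listed by the test of the difference itself, 1.22 on the log2 scale more positive in IVF than in Natural ovaries.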

How the results depend on the processing

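The count of 10569 genes changed with age in IVF ovaries ranged from 8180 to 12195 over the other tools, scalings, filters and depths, and from 9861 to 10569 with each library left out in turn. A test against a 2-fold change left 3339. Of 2979 values of single named genes under an alternative, 2906 stayed on the same side of the threshold, 39 lost the call and 34 gained one. No called value changed sign, while Nlrp5, Wnt4, Lgr5, Vwf, Ptx3, Ghr and Rrm2, which did not pass the test, changed sign under at least 1 alternative. The calls lost were those of Lin28a, Lum, Cdh13, Foxj1, Car3, Ckm and Cd276. With at least 10 counts required in every library, which leaves few members, the median log2 fold change turned positive for liver genes (0.38), nerve and glia genes (1.58) and the ovary genes the study names (0.73). Scaling by library totals moved the median of all tested genes to -0.09.

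The count of genes whose age change differed between IVF and Natural ovaries was 1 and depended on the setting. DESeq2 called 492, no filter on low counts gave 17, library totals gave 0, and leaving out single libraries gave 0 to 173, the highest being without 12-week IVF replicate 2. Further counts were 78 without Natural E18.5 replicate 1, 52 without Natural E18.5 replicate 3, 31 without 12-week IVF replicate 5 and 9 without IVF E18.5 replicate 5. Leaving out Natural E18.5 replicates 1 and 3 together, chosen after seeing the data, gave 181. The edgeR counts at an unadjusted p under 0.05 were 2866 by default, 2795 with library totals and 2452 with the replicate block. The cause was not tested.

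With the replicate number as a block, 9419 genes changed with age in IVF ovaries, 7895 in Natural ovaries against 8672 without it, and 0 for the difference between them. Same-numbered libraries of the ages correlated by -0.0860 to 0.0409 in IVF ovaries and by -0.0897 to 0.0766 in Natural ovaries. The numbers were therefore not taken to pair animals. Among IVF ovaries, only replicate 1 correlated best with its own number.

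Depth limits genes with few reads most in 12-week replicate 4, and a call missed there does not show that a gene did not change.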
